A study of Mus musculus with 29 samples.

Results

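The 4 Ifit genes Ifit1, Ifit2, Ifit3 and Ifit3b and the interferon-induced genes Isg15, Usp18 and Rsad2 were followed through all 29 mRNA libraries of the mouse melanoma line NMM. They were taken by gene symbol, which gave 7 of the 28229 genes in the deposited count table, and all 7 passed the filter on low counts that left 14935 genes. NMM carries mutant NRAS, and every library came from it. Cells received a first stimulus for 2, 6, 12 or 24 h, were washed with PBS, and then received a second stimulus for 24 h. Interferon gamma (IFNγ) was given at 100 ng/ml and transforming growth factor beta (TGFβ) at 10 ng/ml. The design held 7 orders of stimuli, called sequences here, and each was sequenced at all 4 durations. In 3 of them medium came first and was followed by medium, by IFNγ or by TGFβ. Each cytokine was also given first with medium second, and the remaining pair of sequences had both cytokines, in either order. A single library received medium for 24 h and then a mix of both cytokines. Durations stood in as replicates, no label ties libraries to separate cultures, and p-values therefore measure only the spread between these libraries, which may be technical.

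These genes are textbook targets of interferon signalling. Type I interferons bind a receptor made of IFNAR1 and IFNAR2, whose kinases JAK1 and TYK2 activate the transcription factor complex ISGF3. This complex binds interferon-stimulated response elements (ISRE) in promoters. IFNγ uses its own receptor, acts mainly through gamma-activated sites (GAS), and induces the transcription factor IRF1, which also binds ISRE-like sites. Ifit1 encodes a protein that binds viral RNA with foreign cap structures, and Ifit2 and Ifit3 encode relatives that act with it. Isg15 encodes a ubiquitin-like protein that is attached to other proteins. Usp18 encodes the protease that removes ISG15, and it also dampens signalling at IFNAR2. Rsad2 encodes viperin, an antiviral enzyme that makes a chain-terminating nucleotide.

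The Ifit genes lie side by side on chromosome 19 of GRCm38, all on the plus strand, by the coordinates of the deposited table: Ifit2 at chr19:34550694-34576419, Ifit3 at chr19:34583531-34588731, Ifit3b at chr19:34607970-34613401 and Ifit1 at chr19:34640871-34650009. Isg15 is at chr4:156199455-156200796 on the minus strand, Usp18 at chr6:121245906-121270917 on the plus strand, and Rsad2 at chr12:26442746-26456452 on the minus strand. Ifit3 and Ifit3b are near-identical copies. Of the 1696 distinct 50-base stretches in Ifit3 transcripts of GENCODE release M21, 869 (51.2%) also occur in Ifit3b transcripts, so how reads were divided between them is uncertain. Ifit1 shares 184 of 2607 such stretches (7.06%) with its paralog Ifit1bl2.

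RefSeq promoter windows on GRCm38.p6, of 250 bases before and 50 bases after a transcript start, were matched by symbol for 6 of the 7 genes (7 windows, with 2 starts for Ifit2), and Usp18 was not matched. The core of an ISRE, GAAA followed by any 2 bases and GAAA again, was searched on both strands and occurred in 3.44% of all 32851 windows of that length. It occurred in 5 of the 7 windows, those of Ifit1, Ifit3, Ifit3b, Isg15 and Rsad2, and in neither window of Ifit2. The GAS core TTCNNNGAA reads the same on both strands, occurred in 8.3% of all windows and was found in 1 window, of Ifit2, so it did not overlap an ISRE match in any of the 7. Stretches around the ISRE matches are shown because these genes moved together in the counts; a match describes letters and not a bound site. Capitals mark the matches, and each stretch is written 5′ to 3′ on the strand of its gene. The stretches are at chr19:34640755-34640843 (Ifit1), chr19:34583343-34583446 (Ifit3), chr19:34607739-34607842 (Ifit3b), chr4:156200845-156200926 (Isg15, minus strand) and chr12:26456533-26456602 (Rsad2, minus strand).
Ifit1: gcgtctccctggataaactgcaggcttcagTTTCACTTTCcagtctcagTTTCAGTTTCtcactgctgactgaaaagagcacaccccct
Ifit3: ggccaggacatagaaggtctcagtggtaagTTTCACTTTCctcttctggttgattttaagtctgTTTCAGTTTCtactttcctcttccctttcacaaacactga
Ifit3b: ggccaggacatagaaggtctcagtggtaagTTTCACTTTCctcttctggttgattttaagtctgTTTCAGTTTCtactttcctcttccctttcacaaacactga
Isg15: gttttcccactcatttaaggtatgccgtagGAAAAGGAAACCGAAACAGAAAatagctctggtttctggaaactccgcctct
Rsad2: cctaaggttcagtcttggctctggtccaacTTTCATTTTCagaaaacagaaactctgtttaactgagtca
The Ifit3 and Ifit3b stretches were identical over all 104 bases. Ifit1, Ifit3 and Ifit3b each held 2 matches, Isg15 held 3 that overlap one another, and Rsad2 held 1.

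Library totals ran from 17179530 to 23668015 counts, and levels are given as CPM, the usual depth-scaled count, on libraries scaled with TMM factors. Among the 4 medium libraries the one at 6 h stood apart, with an SD of 0.596 in the log2 difference to the other 3, against 0.320 to 0.361 for the others. The melanocyte markers Sox10 and Pmel were at most at 0.135 and 0.444 CPM, Mitf ran from 8.40 to 20.2 CPM and Gpnmb from 26.4 to 276 CPM. Of the 9 listed markers 5 were in the table, and Mlana, Tyr, Tyrp1 and Dct had no row under those symbols. Leukocyte markers, 5 of 11 of them in the table, summed to at most 0.867 CPM in any library, and the pan-leukocyte gene Ptprc reached 0.172 CPM. The fibroblast list, 7 of 8 in the table, summed to between 132 and 1945 CPM, with Col1a1 at no more than 0.751 and Lum at no more than 0.173 CPM, but Col3a1 from 80.4 to 1461 and Dcn from 26.0 to 461 CPM. In bulk RNA, fewer cells of a type and less RNA per cell cannot be told apart.

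All 7 genes were expressed without any added cytokine. After medium then medium, Ifit1 had 524, 437, 553 and 572 CPM at 2, 6, 12 and 24 h, a mean of 521 ± 59.7 (SD, n = 4). Isg15 had 361, 320, 361 and 353 CPM and Usp18 342, 316, 350 and 385 CPM in the same libraries. Rsad2 had 1054, 606, 1230 and 1180 CPM, and Ifit3 768, 438, 859 and 882 CPM. The 6 h medium library was the lowest of the 4 for every one of the 7 genes, most clearly for Ifit3, Ifit3b and Rsad2. Per kilobase of exon sequence, Isg15 (461 ± 25.5 CPM per kb) and Ifit3 (422 ± 117) had the highest medium levels and did not differ beyond their spread. Below them came Rsad2 (235 ± 65.6), Ifit1 (196 ± 22.5), Ifit2 (143 ± 27.9), Usp18 (125 ± 10.1) and Ifit3b (99.1 ± 33.4 CPM per kb), with each neighbouring pair from Rsad2 down to Ifit3b apart by no more than the sum of their SDs except Ifit1 and Ifit2.

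**Figure D1:**
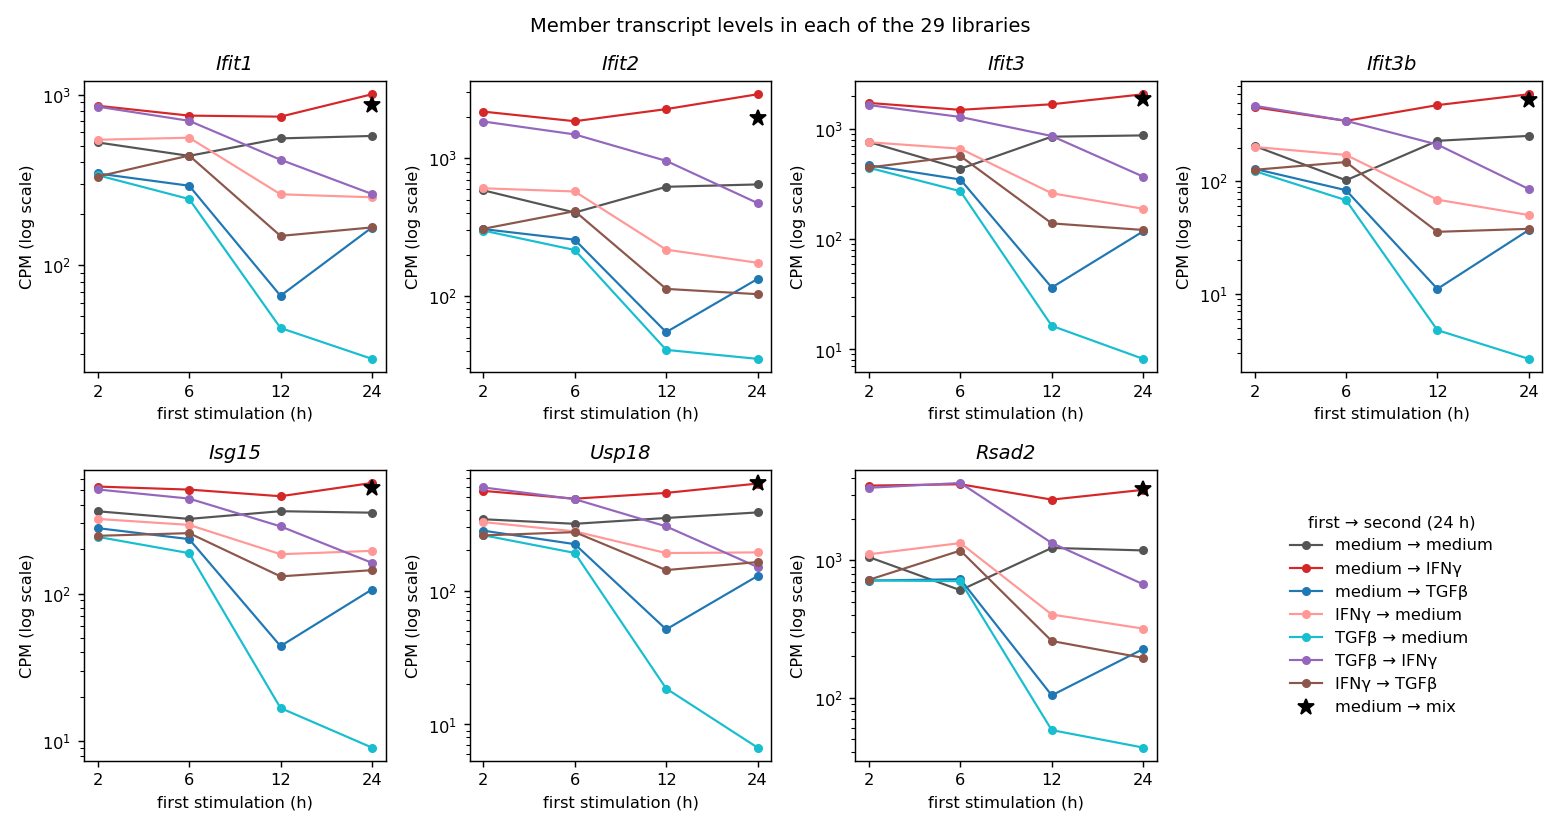
CPM (log axis) of each gene against the duration of the first stimulus in h, 1 point per library, lines joining the 4 libraries of a sequence and a star for the mix. The TGFβ then medium libraries of 12 and 24 h are the lowest 2 of the 29 for every gene, with Ifit3 at 16.4 and 8.21 CPM.

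All 7 transcripts were at their lowest in cells that had received TGFβ first, for 12 or 24 h, and then medium. Ifit3 had 448, 274, 16.4 and 8.21 CPM after 2, 6, 12 and 24 h of TGFβ, against 768, 438, 859 and 882 CPM after medium, so the 24 h libraries differed 107-fold. Its near copy Ifit3b went the same way, with 124, 68.1, 4.76 and 2.64 CPM and a 96.2-fold difference at 24 h. Both genes lay below the matched medium library by 1.50- to 1.71-fold at 2 and 6 h, and by 48.3- to 107-fold at 12 and 24 h.

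For Ifit1 the 4 libraries had 336, 244, 42.8 and 28.2 CPM, which is 20.3-fold under medium at 24 h. Ifit2, whose protein acts with Ifit3, had 298, 216, 40.7 and 35.0 CPM and was 18.4-fold under medium at 24 h. The smallest 24 h differences in the set were those of these 2 genes.

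Isg15 had 242, 188, 16.8 and 9.07 CPM and was 38.9-fold under medium at 24 h. Its protease gene Usp18 had 260, 192, 18.6 and 6.72 CPM and was 57.3-fold under medium. Rsad2, which makes viperin, had 713, 704, 58.0 and 43.3 CPM and was 27.2-fold under medium. At 6 h Rsad2 was above the matched medium library, itself the lowest in medium, and at 12 h it was 21.2-fold under the matched one. For every gene the 12 and 24 h libraries of this sequence were the lowest 2 of all 29. The share of counts from mitochondrial genes, a sign of RNA quality or cell state, was 1.23% in both of them, against 0.841% and 0.868% in the matched medium libraries. It was 1.24% in the 6 h medium library, 0.676% to 0.814% after medium then IFNγ, and 1.31% in the 24 h IFNγ then medium library, the highest of all. Its part in the result was not tested.

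Over the 4 durations together, all 7 genes passed the test and were lower after TGFβ first (edgeR quasi-likelihood test, Benjamini-Hochberg adjusted p from 0.000564 for Ifit2 to 0.00865 for Usp18), where 14.5% of all genes tested were called lower. Log2 fold changes ran from -2.98 (SE 0.74) for Ifit3 to -2.08 (SE 0.58) for Usp18, with a median of -2.38 against a median of -2.0e-04 over all genes. In 4 of the 7 genes no TGFβ first library reached the lowest medium library, and in the other 3 the ranges overlapped. The share of all genes without overlap is not given here, so this count has no background to be read against. Without the 6 h medium library all 7 were still called, between -3.39 and -2.30. The calls rested on the longer durations and on the pooled spread: 2 genes were called without the 12 h libraries, 3 without the 24 h libraries, 2 without a term for duration, and 0 when only the 8 libraries compared were fitted.

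A model with separate levels for the 2 shorter and the 2 longer durations, chosen after the values were seen, set the durations apart. Because the cut was picked on these same values, p-values from this model, here and below, can be too small. At 2 and 6 h 0 of 7 genes were called lower (background 6.53%), with log2 fold changes of -0.23 to -0.94 and 3 genes under an unadjusted p of 0.05. At 12 and 24 h all 7 were called (background 9.47%), from -6.14 (SE 0.53, adjusted p 2.85e-08) for Ifit3 and -6.03 (SE 0.58) for Ifit3b to -3.99 (SE 0.33, adjusted p 1.63e-08) for Ifit1. The change from the shorter to the longer durations, itself tested against the same change in medium, was called lower for all 7 genes (background 2.04%), from -5.40 (SE 0.64) for Ifit3 to -3.12 (SE 0.45) for Ifit2. As a slope per doubling of duration, the fall within TGFβ then medium was called for 6 of 7 genes (background 1.23%), all but Rsad2 (adjusted p 0.0813), for 2 without the 12 h library of that sequence and for 0 without its 24 h library. Set against the slope in medium, which is the test written in the design, the slope was called for 0 of 7 genes. Adjusted p ran from 0.0624 to 0.331 (edgeR), with 7 genes under an unadjusted p of 0.05 and 1 of 14935 genes called lower. The sum of 5 of 9 melanocyte markers was between 38.3 and 85.2 CPM after TGFβ then medium and between 164 and 291 CPM in medium. Most of that sum is Gpnmb, and over the 3 markers tested the median log2 fold change was -0.24. Its part in the result was not tested.

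**Figure D2:**
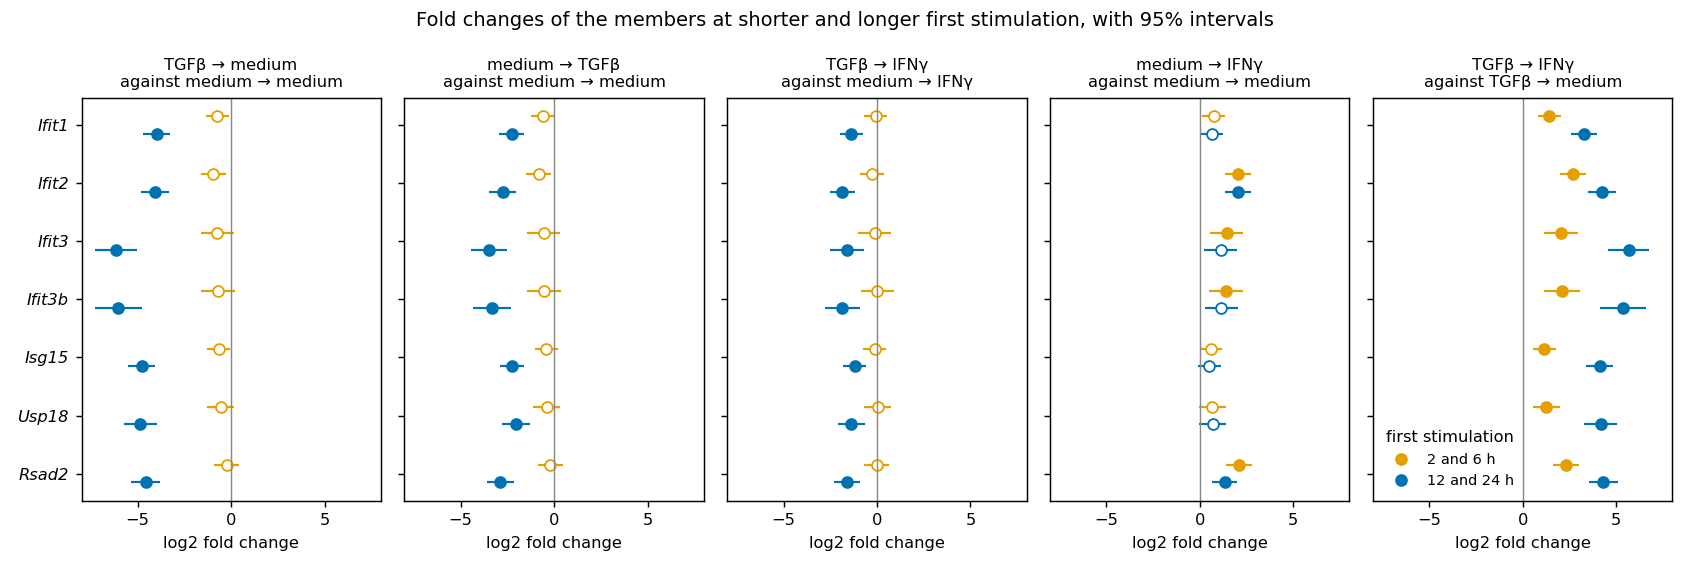
Log2 fold changes (x axis) of the 7 genes in 5 comparisons, at 2 and 6 h and at 12 and 24 h of first stimulus; points are edgeR estimates, bars 95% intervals, and filled points passed an adjusted p of 0.05. Against medium, TGFβ first gave values between -0.94 and -0.23 at the shorter durations and between -6.14 and -3.99 at the longer ones.

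TGFβ as the second stimulus lowered the same genes, again mainly in the libraries of 12 and 24 h, although there the first stimulus was medium. Ifit3 had 472, 350, 36.5 and 118 CPM after medium then TGFβ, and Ifit3b had 129, 83.5, 11.1 and 36.9 CPM. The 12 h library was the lowest for all 7 genes and the 24 h library lay above it. Ifit1 had 344, 292, 66.1 and 166 CPM, and Ifit2 306, 256, 54.7 and 133 CPM.

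Isg15 had 277, 234, 44.1 and 107 CPM and Usp18 281, 223, 51.4 and 129 CPM. Rsad2 had 712, 728, 104 and 226 CPM, with its 6 h value above the 6 h medium library, the lowest medium library for this gene. Against medium, 5 of 7 genes were called lower (background 11.6%), with log2 fold changes from -2.29 (SE 0.71) for Ifit3 to -1.58 (SE 0.44) for Ifit1. Isg15 at -1.41 (SE 0.52, adjusted p 0.0524) and Usp18 at -1.31 (SE 0.55, adjusted p 0.0889) did not pass. The count ranged from 1 to 6 when single libraries were left out, being 1 without the 12 h TGFβ library or without the 24 h medium library and 2 without the 12 h medium library, and it was 0 without the 12 h libraries, without a term for duration or with only the libraries compared.

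For 12 and 24 h all 7 genes were called lower (background 7.24%), from -3.49 (SE 0.45) for Ifit3 to -2.03 (SE 0.35) for Usp18. In the 2 and 6 h libraries 0 were called (background 4.69%), with values of -0.81 to -0.21 and 1 gene under an unadjusted p of 0.05. The change from shorter to longer durations against medium was called for 6 genes (background 1.45%), and for Usp18 it was -1.64 (SE 0.48, adjusted p 0.0978). As a slope per doubling of duration, the fall within medium then TGFβ was called for 0 of 7 genes (edgeR, adjusted p at least 0.431, 6 under an unadjusted p of 0.05). The difference of that slope from the slope in medium was also called for 0 of 7, with 2 under an unadjusted p of 0.05. In this sequence the duration is the time in medium before TGFβ, and it cannot be told apart from the total time in culture.

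With IFNγ as the second stimulus 2 of the 7 genes, Ifit2 and Rsad2, were called higher. Ifit2 had 2176, 1854, 2269 and 2908 CPM after medium then IFNγ, against 584, 403, 620 and 645 CPM in medium. Rsad2 had 3497, 3576, 2765 and 3257 CPM against 1054, 606, 1230 and 1180 CPM. The share of all genes called higher was 22.7%, so a count of 2 of 7 is near the background. The values were log2 fold changes of 2.03 (SE 0.47, adjusted p 0.00112) for Ifit2 and 1.50 (SE 0.54, adjusted p 0.0279) for Rsad2.

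Ifit3 had 1740, 1505, 1692 and 2086 CPM, which was 2.27-, 3.43-, 1.97- and 2.37-fold its matched medium library. Ifit1 had 860, 752, 742 and 1004 CPM and differed by 1.34- to 1.76-fold. Isg15 had 530, 506, 456 and 561 CPM, 1.26- to 1.59-fold its matched medium level, and Usp18 558, 487, 539 and 632 CPM, 1.54- to 1.64-fold. In all 7 genes every IFNγ library lay above every medium library, as in 18.1% of all genes tested. Per kb of exon sequence Ifit3 (1006 ± 139 CPM per kb) then had the highest level, followed by Rsad2 (755 ± 84.3), Isg15 (679 ± 58.6), Ifit2 (586 ± 112), Ifit1 (316 ± 45.9), Ifit3b (234 ± 51.2) and Usp18 (199 ± 21.6). Rsad2 and Isg15, Isg15 and Ifit2, Ifit1 and Ifit3b, and Ifit3b and Usp18 were neighbours that did not differ beyond the sum of their SDs.

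Calls for IFNγ second depended on the spread used. With only the 8 libraries compared, 7 genes were called. The count was 1 without a term for duration and 1 without the 2 h or the 6 h medium library, or without the 12 h or the 24 h IFNγ library. Leaving out the 6 h medium library put Ifit2 at 1.77 (adjusted p 0.00506) and Rsad2 at 1.14 (adjusted p 0.0845). At 2 and 6 h 4 genes were called (Ifit2, Ifit3, Ifit3b and Rsad2; background 16.3%), and 2 without the 2 h IFNγ library or without the 6 h medium library. At 12 and 24 h Ifit2 at 2.03 (SE 0.32) and Rsad2 at 1.32 (SE 0.32) were called (background 12.3%), and 1 gene without the 24 h IFNγ library. The summed fibroblast list was lower after medium then IFNγ, at 195 to 234 CPM against 577 to 1945 CPM in medium, and its part in the result was not tested. The IFNγ target Irf1 checked the stimulus: it was 3.73 higher (SE 0.28) on the log2 scale.

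After a first stimulus of IFNγ and then medium, no gene was called higher. Ifit1 had 543, 558, 260 and 250 CPM, Ifit2 605, 573, 217 and 174 CPM, and Rsad2 1106, 1334, 403 and 318 CPM. The 12 and 24 h libraries lay under the matched medium libraries, the 2 h libraries differed little from them, and Rsad2 at 6 h was 2.20-fold above. That medium library was low for Rsad2, at 606 CPM against 1054, 1230 and 1180 CPM in medium at 2, 12 and 24 h. Isg15 had 320, 292, 185 and 195 CPM and Usp18 326, 278, 191 and 193 CPM. Over all durations 0 of 7 genes were called (edgeR; background 0.408% lower; 0 under an unadjusted p of 0.05, and 0 by DESeq2), with log2 fold changes of -1.18 to -0.61. With 12 and 24 h of first stimulus Ifit2 at -1.69 (SE 0.32), Ifit3 at -1.94 (SE 0.42), Ifit3b at -2.02 (SE 0.44) and Rsad2 at -1.74 (SE 0.32) were called lower (background 0.435%), but 0 were when any of the 4 libraries in that comparison was left out. In the 2 and 6 h libraries 0 were called (background 0.107%; 0 under an unadjusted p of 0.05), with values from -0.15 to 0.56.

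TGFβ given before IFNγ went with lower levels of the 7 genes at 12 and 24 h, while at 2 and 6 h the differences were small and not called. The change between durations was itself not called for any gene, as given below. Ifit2 had 1845, 1487, 956 and 473 CPM after TGFβ then IFNγ, and Rsad2 had 3372, 3655, 1336 and 669 CPM. Ifit3 had 1664, 1297, 870 and 372 CPM, Usp18 592, 483, 302 and 150 CPM, Ifit1 849, 702, 415 and 261 CPM, Ifit3b 471, 346, 213 and 85.6 CPM, and Isg15 507, 440, 285 and 162 CPM. At 24 h the medium then IFNγ library was higher by 3.47-fold for Isg15, 3.84-fold for Ifit1, 4.21-fold for Usp18, 4.87-fold for Rsad2, 5.60-fold for Ifit3, 6.15-fold for Ifit2 and 6.96-fold for Ifit3b. At 2 h the same ratios lay between 0.943 and 1.18.

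Over all durations 0 of 7 genes were called lower (edgeR; background 7.19%; 1 under an unadjusted p of 0.05, and 0 by DESeq2), with log2 values of -1.26 to -0.75. At 12 and 24 h 7 were called (background 5.99%), from -1.86 (SE 0.32) for Ifit2 to -1.19 (SE 0.28) for Isg15, 1 without the 24 h TGFβ then IFNγ library and 2 without the 24 h medium then IFNγ library. At 2 and 6 h 0 were called (background 1.71%, 0 under an unadjusted p of 0.05), between -0.27 and 0.04, with a 95% interval of -0.67 to 0.56 for Ifit1. The change from the shorter to the longer durations, tested against the same change in medium then IFNγ, was called for no gene. It ran from -1.87 (SE 0.60) for Ifit3b to -1.06 (SE 0.39) for Isg15 (edgeR, adjusted p 0.2125 to 0.4329). As a difference of slopes per doubling of duration it was called for 0 of 7 genes (edgeR, adjusted p at least 0.966).

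Against TGFβ then medium, all 7 genes were higher when IFNγ followed TGFβ. At 24 h of TGFβ, Ifit3 went from 8.21 CPM with medium to 372 CPM with IFNγ, a 45.3-fold difference, where after medium the same second stimulus made a 2.37-fold difference. Usp18 differed 22.4-fold against 1.64-fold, Isg15 17.8-fold against 1.59-fold, Rsad2 15.4-fold against 2.76-fold, and Ifit1 9.27-fold against 1.76-fold. All 7 genes were called higher over all durations (background 18.8%), from 1.96 (SE 0.53) for Isg15 to 3.25 (SE 0.49) for Ifit2. They were also called at 2 and 6 h (7 of 7, background 14.5%, median 2.04) and at 12 and 24 h (7 of 7, background 6.95%, median 4.24).

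The difference between the IFNγ effect after TGFβ and after medium was tested as an interaction. Over all durations 0 of 7 genes were called (edgeR; background 0.321%; 1 under an unadjusted p of 0.05, and 0 by DESeq2), with values of 1.22 to 1.85. In the libraries of 12 and 24 h 7 were called (background 1.51%), from 2.21 (SE 0.45, adjusted p 0.00739) for Ifit2 to 4.54 (SE 0.63, adjusted p 0.000109) for Ifit3, and 6 or 7 when single libraries were left out. In the 2 and 6 h libraries 0 were called (background 0.0402%; 0 under an unadjusted p of 0.05), with values of 0.22 to 0.72. The medium then medium and TGFβ then medium libraries also enter the comparisons above, so this test is not independent of them.

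With IFNγ first and TGFβ second, levels differed from medium then TGFβ mainly in the 12 h libraries, where they were 2.06- to 3.83-fold higher, while at 24 h they were 0.776 to 1.35 times those levels. Ifit1 had 330, 439, 148 and 166 CPM, Ifit3 451, 572, 140 and 122 CPM, Isg15 246, 257, 131 and 144 CPM, and Rsad2 721, 1177, 258 and 195 CPM. At 6 and 12 h all of these were above the medium then TGFβ library of the same duration. Against medium then TGFβ 0 of 7 genes were called higher (edgeR; background 0.0268%; 0 under an unadjusted p of 0.05, and 0 by DESeq2), with log2 values of 0.31 to 0.50. Over the 12 and 24 h libraries 0 were called higher (background 0.857%; edgeR; 2 under an unadjusted p of 0.05, and 0 by DESeq2), with a median of 0.61. Leaving out single libraries moved that median between 0.00 and 1.58, and 3 genes were called without the 24 h medium then TGFβ library. The interaction of IFNγ first with TGFβ second was called for 0 genes over all durations (edgeR; background 0%; 0 under an unadjusted p of 0.05, and 0 by DESeq2). At 12 and 24 h it was called for 5 (background 1.14%), but it was 7 without the 24 h medium then TGFβ library and between 0 and 2 without any of the other 7 libraries.

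Between the 2 orders of both cytokines, TGFβ then IFNγ was higher for Ifit2 at 2.43 (SE 0.48), Rsad2 at 2.01 (SE 0.55), Ifit3 at 1.85 (SE 0.68) and Ifit3b at 1.74 (SE 0.65), which is 4 of 7 genes called (background 16.4%). Isg15 at 0.81 (SE 0.51) and Usp18 at 0.79 (SE 0.54) did not pass. Ifit1 did not pass either, with TGFβ then IFNγ at 2.57, 1.60, 2.80 and 1.57 times IFNγ then TGFβ at 2, 6, 12 and 24 h. The count was 2 without the libraries of any 1 duration, and 2 without any of 6 of the 8 single libraries, all but the 6 h IFNγ then TGFβ and the 24 h TGFβ then IFNγ library.

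The mix after 24 h of medium was measured in a single library, with no replicate to test it, and its levels lay nearer to medium then IFNγ than to medium then TGFβ. Rsad2 had 3292 CPM with the mix and 3257 with IFNγ alone, and Usp18 639 and 632 CPM. Ifit2 had 1965 CPM, 0.676 of its level with IFNγ alone, and Ifit1 869 CPM, 0.866 of it. Every gene was at least 4.87 times its level in the 24 h medium then TGFβ library.

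The 7 genes rose and fell together. Pearson correlations of log2 CPM between pairs of them, over 29 libraries that share sequences and scaling, ran from 0.879 to 0.998 with a median of 0.971. On deviations from the sequence means, over 28 libraries, they ran from 0.895 to 0.996. Of the ratios within a library, 2 moved little: Ifit3b over Ifit3 stayed between 0.230 and 0.322 and Usp18 over Isg15 between 0.740 and 1.23, while Ifit3 over Ifit1 ran from 0.291 in the 24 h TGFβ then medium library to 2.28 in the 12 h medium then IFNγ library. Ifit3 and Ifit3b share sequence, and the part of shared reads in the first ratio was not tested. Isg15 over Ifit2 was lowest after 24 h of medium then IFNγ, at 0.193, and highest after IFNγ then TGFβ at 24 h, at 1.40.

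**Figure D3:**
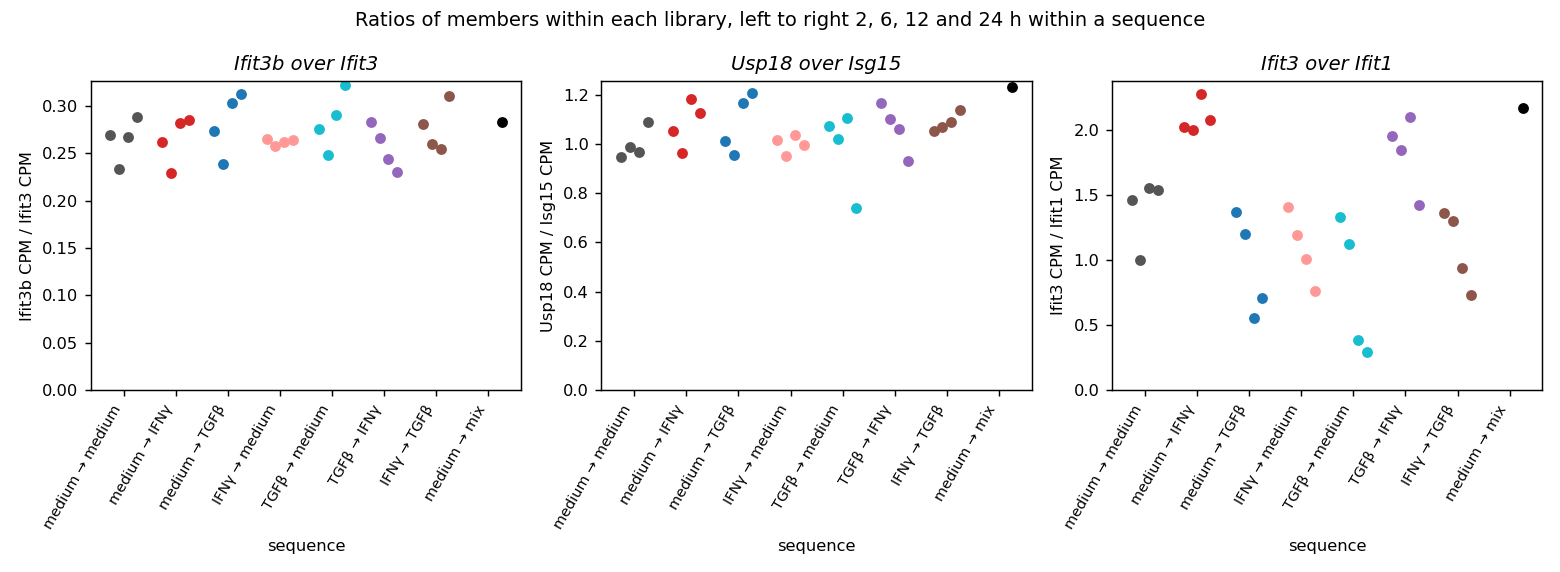
Ratio of CPM of 2 genes within each library (y axis, from 0) by sequence, points left to right at 2, 6, 12 and 24 h. Ifit3b over Ifit3 lies between 0.230 and 0.322 in all libraries, and Ifit3 over Ifit1 falls to 0.291.

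By the mean correlation with the 7 genes, the most similar other genes were Ifih1 (0.980), which encodes a sensor of viral RNA, Cmpk2 (0.977), Mndal (0.976), Ifi211 (0.974), Tor3a (0.974), Ifi203 (0.974), Mx1 (0.973), Ifi204 (0.973), Nmi (0.973) and Parp10 (0.973). On deviations from the sequence means Ifih1 (0.980) and Cmpk2 (0.978) again came first, and Hap1 (0.972) and Ankfy1 (0.970) entered the first 10. Cmpk2 is the neighbour of Rsad2 on chromosome 12. It was 1.76 higher (SE 0.64) with IFNγ second and fell by 2.92 (SE 0.71) on the log2 scale with TGFβ first.

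Genes of ISG15 conjugation were lower after TGFβ along with Isg15 itself. Of the 5 tested, 4 were called lower after TGFβ first (14.5% of all genes): Uba7, the activating enzyme, at -1.97 (SE 0.50), Ube2l6, the conjugating enzyme, at -2.22 (SE 0.54), Herc6, the main ligase in mouse, at -2.14 (SE 0.44), and Trim25 at -1.03 (SE 0.22). Arih1 was at -0.04 (SE 0.04). With IFNγ second 1 of 5, Herc6, was called higher at 1.36 (SE 0.40), near the 22.7% of all genes. With IFNγ after TGFβ 5 of 5 were called higher, against 18.8% of all genes.

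Among 10 genes of the receptor, kinases and transcription factors, 5 were called lower after TGFβ first (14.5% of all genes): Stat2 at -1.89 (SE 0.45), Irf9 at -1.07 (SE 0.29), Irf7 at -2.54 (SE 0.73), Irf1 at -0.98 (SE 0.27) and Ifnar2 at -0.38 (SE 0.08). The other receptor chain Ifnar1 at -0.07 (SE 0.06), the kinase Jak1 at -0.01 (SE 0.04) and Irf3 at 0.03 (SE 0.04) did not pass. With IFNγ second, Stat2 at 0.16 (SE 0.42) and Irf9 at 0.21 (SE 0.28) were not called, while 3 of 10 were called higher (22.7% of all genes): Irf1, Irf2 at 0.86 (SE 0.06) and Ifnar2 at 0.32 (SE 0.08). The kinase gene Tyk2 was called lower at -0.28 (SE 0.08), and after TGFβ first it was at -0.21 (SE 0.08, adjusted p 0.0576) and did not pass.

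**Figure D4:**
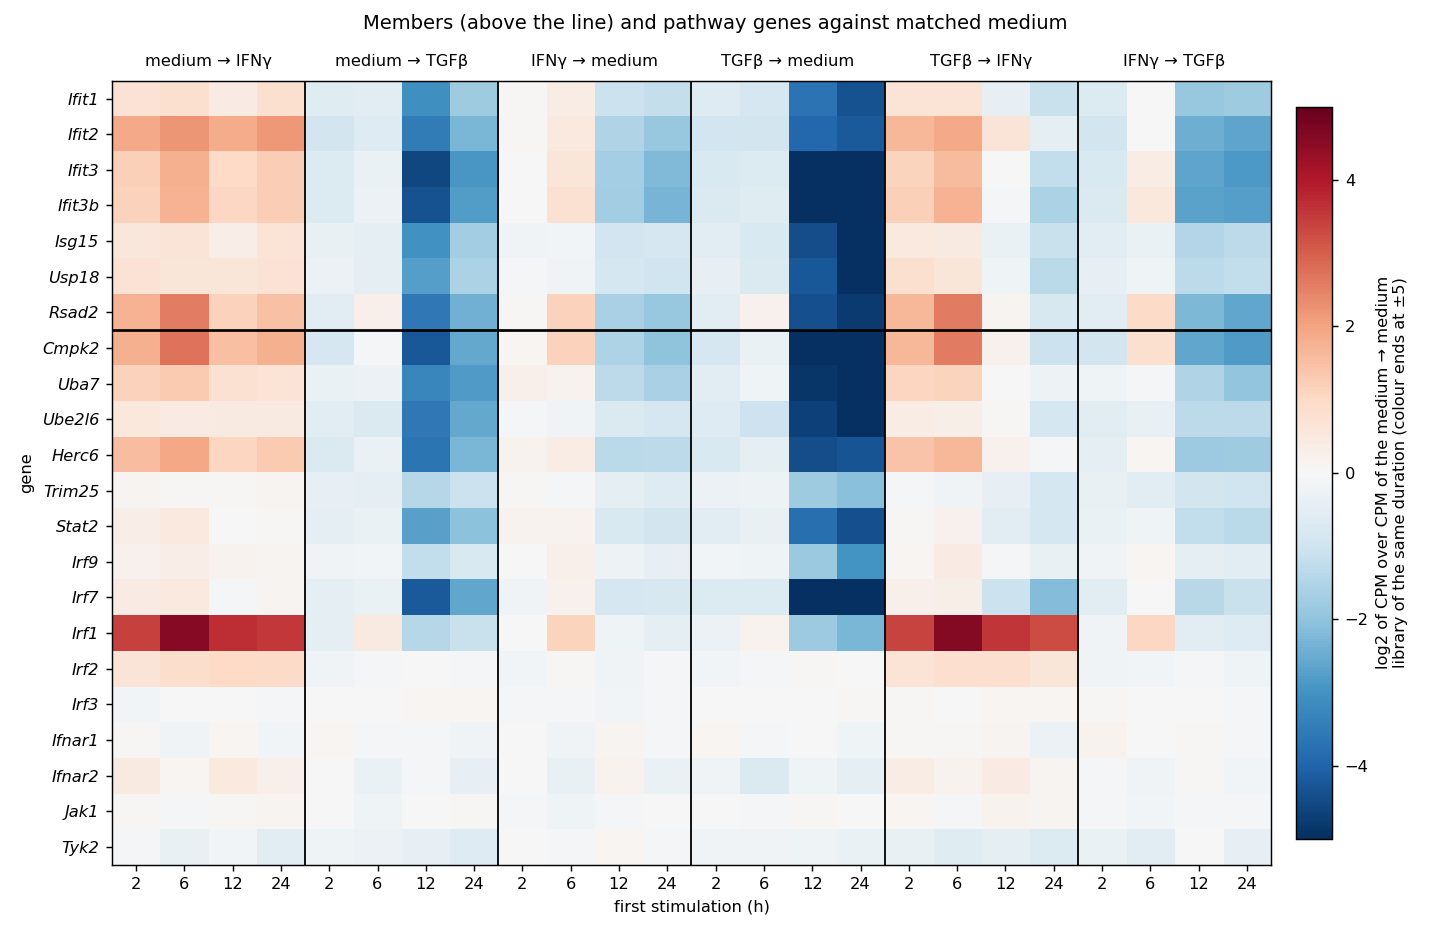
Log2 ratio of CPM in each library to the medium then medium library of the same duration (colour), for the 7 genes and 15 pathway genes (rows) by sequence and duration in h (columns). The lowest ratios are in TGFβ then medium at 12 and 24 h, where Ifnar1, Jak1 and Irf3 stay near 0.

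Of a list of 34 other targets of ISGF3, 33 were tested. After TGFβ first 33 of 33 were called lower (14.5% of all genes), with a median of -1.95 against -2.38 for the 7 genes: Ifi27l2a at -3.36 (SE 0.56), Phf11d at -3.15 (SE 0.75) and Oas2 at -3.06 (SE 0.66) were the lowest, and Ifih1 at -1.58 (SE 0.39), Helz2 at -1.44 (SE 0.40) and Eif2ak2 at -1.31 (SE 0.32) the least changed. With IFNγ second 7 of 33 were called higher, a share no larger than the 22.7% of all genes, and 1 lower, with Mx1 at 1.90 (SE 0.55), Cmpk2 and Mx2 at 1.70 (SE 0.57) the highest, and Ifi27l2a at -1.36 (SE 0.45), Oas2 at -0.34 (SE 0.58) and Lgals3bp at -0.24 (SE 0.35) the lowest.

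Transcripts of those interferon genes that were found in the count table were scarce. Of 21 type I, II and III interferon genes, 8 were found in the table by symbol and 2 passed the filter, with 519 counts in all 29 libraries together. The levels of those not found by symbol are not known. Ifnb1, which encodes interferon beta, had 314 of them and never more than 32 in a library. Its mean was 0.890 ± 0.321 CPM in medium (n = 4), 0.173 ± 0.237 after TGFβ then medium and 1.38 ± 0.274 after medium then IFNγ. It was called lower after TGFβ first at -2.38 (SE 0.65, adjusted p 0.00750) and after TGFβ second at -2.40 (SE 0.65, adjusted p 0.00970), and at 0.64 (SE 0.47) with IFNγ second it did not pass. Its part in the change of the 7 genes was not tested.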

How the data were processed

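Stranded mRNA libraries (29) of the NMM line were sequenced, per the labels' protocols. What the authors deposited is a single table of raw counts, whole numbers for each Ensembl gene, with no normalisation. The submitters' processing notes name HISAT, with no version, and the build GRCm38; counting tool, annotation and strand setting: not given in the sources used here. All columns matched 1 sample by name and 0 were left over.

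Genes passing filterByExpr by group (minimum count 10) were tested in R 4.3.3 with edgeR 4.0.16: TMM factors, glmQLFit and glmQLFTest with a term per sequence and a factor for duration over all 29 libraries (18 residual degrees of freedom), and Benjamini-Hochberg adjustment over 14935 genes, called at an adjusted p below 0.05. Slopes on log2 duration, and levels for the shorter (2 and 6 h) and longer (12 and 24 h) durations, used 28 libraries (14 residual degrees of freedom). SE is the log2 fold change over the root of F, and 95% intervals use residual degrees of freedom only. Comparisons against medium share the medium libraries, and those of a sequence share its libraries.

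The duration of the first stimulus was used as the replicate number. Deviations of same-duration libraries correlated by -0.0409 to 0.398 over 8 comparisons, with every value over 0.1 in 3 of them, so durations do not clearly pair the libraries; the duration factor was kept as written in the design. Libraries of 1 sequence differed beyond counting noise (chi-square over its degrees of freedom at least 3.73), so none was counted as a repeat. Lengths and shared 50-base stretches came from GENCODE release M21, promoters from RefSeq. The genes, the lists and the rule for naming (all 7 genes, listed pathway genes, the 3 highest and 3 lowest of the ISGF3 list, and the 10 most correlated genes) were chosen with earlier results of these data known. DESeq2 1.42.0, other scaling, other filters, other models and leaving out libraries were alternatives. A gene of the pathway lists is not reported here.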

Additional observations from a re-analysis of the deposited data

Results flagged for a closer look

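Effects that differed between settings by a test of the difference itself are listed here, as log2 values from the model with separate levels for 2 and 6 h and for 12 and 24 h, which was chosen after seeing the data. In 49 groups of 4 libraries, no library lay far enough from the others to be singled out.

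At 12 and 24 h the effect of IFNγ second, as a log2 ratio, was larger after TGFβ than after medium by 2.62 for Ifit1, 2.21 for Ifit2, 4.54 for Ifit3, 4.18 for Ifit3b, 3.60 for Isg15, 3.49 for Usp18 and 2.99 for Rsad2. The levels reached with IFNγ were lower after TGFβ: at 24 h every gene lay under medium then IFNγ, by 3.47-fold (Isg15) to 6.96-fold (Ifit3b). The effect of TGFβ second was less negative after IFNγ than after medium by 1.89 for Ifit2, 2.70 for Ifit3, 2.63 for Ifit3b, 1.78 for Isg15 and 2.20 for Rsad2. The levels reached at 24 h were 0.776 to 1.35 times those of medium then TGFβ. IFNγ then medium, from which this effect is taken, itself lay under medium at 24 h, by 1.81-fold (Isg15) to 5.06-fold (Ifit3b). These calls depended on single libraries, as given above.

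The effect of TGFβ second at 12 and 24 h, minus that at 2 and 6 h, was -1.68 for Ifit1, -1.94 for Ifit2, -2.94 for Ifit3, -2.79 for Ifit3b, -1.83 for Isg15 and -2.66 for Rsad2. For TGFβ first the same difference was -3.26 for Ifit1, -3.12 for Ifit2, -5.40 for Ifit3, -5.34 for Ifit3b, -4.12 for Isg15, -4.31 for Usp18 and -4.34 for Rsad2. These differences between durations were not refitted without single libraries. As slopes on log2 duration, the differences of both sequences from medium were called for 0 of 7 genes each. Duration and total time in culture cannot be told apart.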

How the results depend on the processing

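All counts here are of the 7 genes called. For most of these alternatives the share of all genes called is not given. A count then shows only how calls moved from the main fit, and is no result about these genes. Without the replicate block (the duration factor), IFNγ second gave 1, TGFβ second 0, TGFβ first 2 and the order of cytokines 1. With only the sequences compared, these gave 7, 0, 0 and 7. Without all 2 h libraries, and likewise without all 6 h libraries, IFNγ second gave 1 and the order 2. Without the 12 h libraries TGFβ second gave 0, TGFβ first 2 and the order 2, and without the 24 h libraries 2, 3 and 2. With no filter on low counts TGFβ before IFNγ gave 1 and the difference of trends between TGFβ then medium and medium 7, which DESeq2 gave as 5. The main fit gave 0 for both.

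With separate levels for shorter and longer durations, 2 and 6 h gave 4 for IFNγ second, 0 for TGFβ second and 0 for TGFβ first. The order at 2 and 6 h gave 7, all higher, where 1531 of 14935 genes were called higher. At 12 and 24 h the counts were 4 for IFNγ first and 7 for TGFβ before IFNγ. They were 7 and 5 for the interactions of TGFβ first and of IFNγ first. Trends within a sequence, taken as 12 and 24 h against 2 and 6 h, gave 2 for IFNγ then medium and 2 for IFNγ then TGFβ. They gave 7 for medium then TGFβ and 6 for TGFβ then IFNγ, and the share of all genes is not given for them. The differences of medium then TGFβ and TGFβ then medium from medium gave 6 and 7. The difference of TGFβ then IFNγ from medium then IFNγ was called for no gene in this way. The cause was not tested.

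Leaving out single libraries gave 1 to 2 for IFNγ second, 1 to 6 for TGFβ second, 0 to 1 for TGFβ before IFNγ, 2 to 5 for the order, 0 to 7 for the trend in TGFβ then medium and 0 to 5 for its difference from medium. At 2 and 6 h it gave 2 to 4 for IFNγ second, 2 to 5 for the order and 5 to 7 for IFNγ after TGFβ. At 12 and 24 h it gave 1 to 2 for IFNγ second, 0 to 0 for IFNγ first, 1 to 7 for TGFβ before IFNγ, 0 to 3 for IFNγ before TGFβ, 3 to 6 for the order, 6 to 7 for the interaction of TGFβ first and 0 to 7 for that of IFNγ first. TGFβ first and IFNγ after TGFβ over all durations and at 12 and 24 h, and TGFβ second at 12 and 24 h, gave 7 in each such fit. A lone library left at the shorter or longer durations is assumed to vary like the others. Of the values of single genes under the alternatives, 2775 stayed on their side of the threshold. These kept their direction or, if called in neither fit, changed sign by no more than the SE of the main fit. With the direction kept, 198 lost their call and 119 gained one. Another 20, called in neither fit, changed sign by more than that SE, and 0 changed sign while called in either fit. With 1 library per sequence and duration, no single duration can be tested.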
